A study of Mus musculus with 4 samples.

Results

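The insulin-like growth factor (IGF) genes described here were followed in mouse P19 embryonal carcinoma cells, a teratocarcinoma line that turns towards neural cells when grown as aggregates with retinoic acid. The genes were Igf2, H19, Igf1r, Igf2r, Irs1, Igfbp2, Igfbp3, Igfbp4, Igfbp5 and Htra1, and a probe set was taken as a member when its only annotated symbol was one of these. That rule gave 19 of 22690 probe sets, which represent 9 of the 10 genes, out of 12393 genes with a probe set of their own. H19 had 1 probe set, which is annotated to both H19 and Mir675, a microRNA gene inside H19. It is therefore shown beside Igf2 under both names and is not counted as a member.

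Control cells were unmodified P19 cells, with no empty vector named in the labels, and the other line was P19 cells that constitutively express human LIN28A. The labels do not say which promoter drives LIN28A or whether the line is 1 clone. Both were grown as aggregates with all-trans retinoic acid at 5e-07 M until day 4, in medium with 2.5% fetal bovine serum and 7.5% bovine serum, so that growth factors and binding proteins of serum were present in both. There were 2 arrays per line, numbered 1 and 2, and nothing in the labels says that they came from separate cultures, so that a p-value measures only array-to-array spread, possibly technical. The comparison asks which IGF transcripts differ between the lines at day 4, within number 1 and within number 2.

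IGF2 is a fetal growth factor that signals through the receptor tyrosine kinase IGF1R and its adaptor IRS1, while IGF2R takes IGF2 into the lysosome for breakdown. The IGF binding proteins hold the ligands outside the cell, and secreted proteases, among them HTRA1, cut binding proteins. Igf2 and H19 are neighbours that share enhancers and are imprinted in opposite ways: Igf2 is expressed from the paternal and H19 from the maternal allele, under a control region bound by CTCF. LIN28A binds the precursors of let-7 microRNAs and keeps them from maturing.

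Members of the let-7 family and the microRNAs inside Igf2 and H19 are shown first, since the arrays measure none of them in mature form. The sequences are the mature forms of RefSeq on GRCm38.p6, 5′ to 3′, with the seed, bases 2 to 8, in capitals.
mmu-let-7a-5p: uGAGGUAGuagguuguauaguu
mmu-let-7g-5p: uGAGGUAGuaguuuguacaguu
mmu-miR-98-5p: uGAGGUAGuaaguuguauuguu
mmu-miR-675-5p: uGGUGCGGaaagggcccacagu
mmu-miR-675-3p: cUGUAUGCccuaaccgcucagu
mmu-miR-483-5p: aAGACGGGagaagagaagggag
mmu-miR-483-3p: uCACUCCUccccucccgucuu

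The first 3 are let-7 family members and share the seed GAGGUAG with 11 of 1679 mature microRNAs in the table, themselves included. The miR-675 hairpin lies inside H19 and gives mature forms at chr7:142577112-142577133 and chr7:142577078-142577099, both on the minus strand. The miR-483 hairpin lies inside Igf2 and gives mature forms at chr7:142654968-142654989 and chr7:142654932-142654952 on the same strand. Each of these 4 mature forms has a seed that no other microRNA of the table has.

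Of the 19 member probe sets, 18 passed the filter on low values. The one that did not was the weaker Igf2 probe set, which read 1.3 and 0.1 on the control arrays and 1.9 and 0.7 on the LIN28A arrays. Differences are given on the scale log2(intensity + 16), which understates changes of low genes. At an adjusted p under 0.05, the limma test called 0 of 18 members in either direction, and 0% of 15838 probe sets. At an unadjusted p under 0.05 it had 1 member, a probe set of Htra1 that was higher, against 0.442% of all probe sets higher and 1.21% lower (70 and 192). That probe set passed the filter only through its LIN28A arrays, where it was high, so its p-value is no support for a difference. Every member had an adjusted p of 1.0, and a value that misses the threshold does not show that the lines were alike.

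The arrays resembled each other by number more than by line, which bears on all values here. Across probe sets, which are not independent, Pearson's r was 0.97 within each number, 0.93 for the control pair and 0.94 for the LIN28A pair. The 18S ribosomal RNA control probe set (middle) read 676.6 and 136.3 on control 1 and LIN28A 1 against 9.2 and 11.3 on control 2 and LIN28A 2. The B1 repeat control probe set read 4520.0 and 5454.5 against 695.6 and 1012.1 in the same order. The beta-actin control probe sets of the 3′ and 5′ ends read 8192.3 and 1740.4 on control 1 and 3390.9 and 1230.6 on control 2. On LIN28A 1 they read 6190.8 and 1836.3, and on LIN28A 2 they read 2465.5 and 796.8. The labels do not say what a number marks, and its part in the results below was not tested beyond the values within each number. Markers were read beside the labelled cell state: Sox2 read between 1294.6 and 1902.3 and the neuronal tubulin gene Tubb3 between 372.4 and 644.1. Not all neural markers were as bright: Sox1 read 36.7 or less on every array and Map2 between 8.6 and 116.8. The pluripotency gene Pou5f1 read 30.3 and 28.7 in number 1 and 374.2 and 775.2 in number 2. In such bulk samples, fewer cells of a type and less RNA per cell cannot be told apart.

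**Figure D1:**
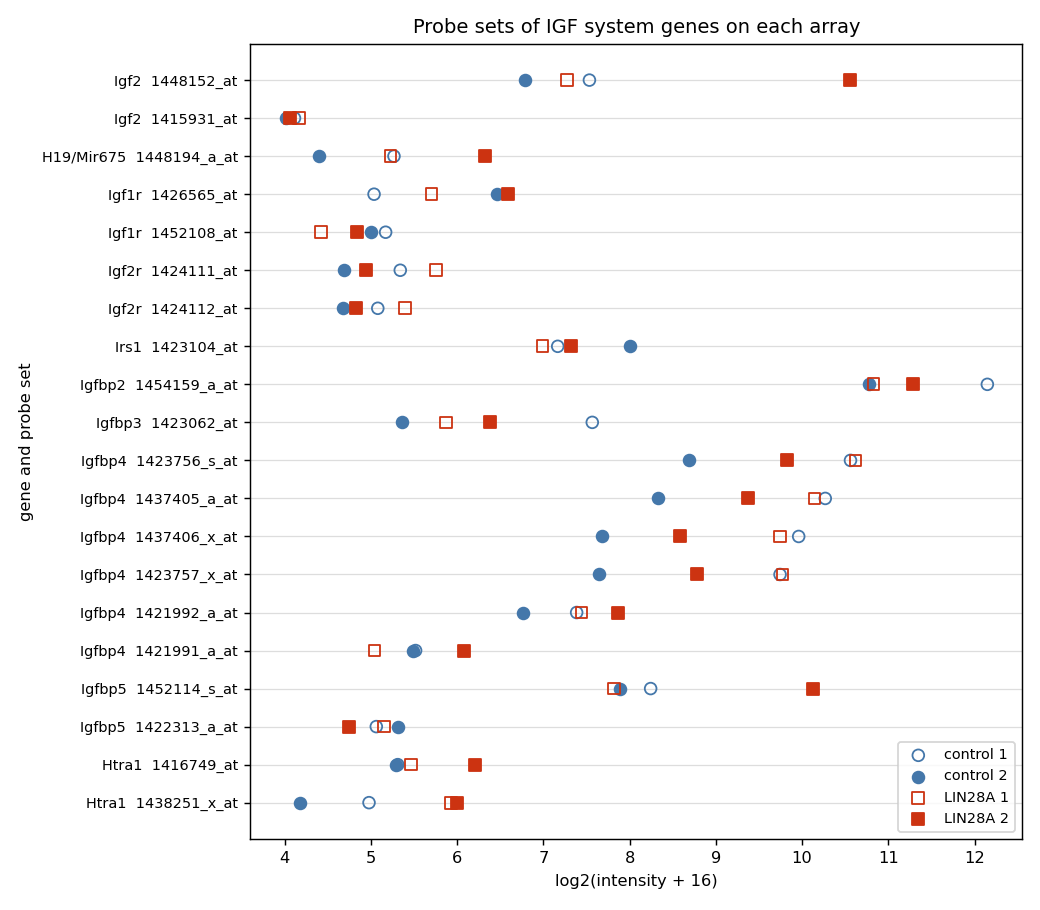
Intensity of every member probe set and of the H19 and Mir675 probe set on each of the 4 arrays, as log2(intensity + 16). Blue circles are control arrays and red squares LIN28A arrays, open for number 1 and filled for number 2; the filled red square of Igf2 (1489.3) stands apart from the other 3 arrays.

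Igf2, the ligand, had 1 array that stood apart. Its brighter probe set read 169.3 on control 1, 94.1 on control 2, 138.7 on LIN28A 1 and 1489.3 on LIN28A 2. Only LIN28A 2 was high, and LIN28A 1 lay between the control arrays, so the lines overlapped. Within number 1 the log2 difference was -0.26, and within number 2 it was 3.77, an intensity ratio of 15.8. The mean of both was 1.76 ± 1.02 (SE, n = 2 arrays per line; 95% interval -0.76 to 4.27; limma, adjusted p = 1.0). Without LIN28A replicate 2 the difference was 0.12.

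Of the 15838 probe sets tested, none had a larger difference than Igf2 within number 2, whereas 66.6% had one above its value within number 1. Igf2 also had the largest number 2 difference under quantile normalization, median centring, a pseudocount of 64 and no filter on low values; with a pseudocount of 1, where low probe sets weigh more, it ranked 8. With 1 array on each side, a difference within a number has no replicate check and no test.

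The probe set of H19 and Mir675 followed the same order at a lower intensity. It read 22.5 on control 1, 5.0 on control 2, 21.4 on LIN28A 1 and 64.2 on LIN28A 2. LIN28A 2 was again the highest array, and LIN28A 1 again lay between the control arrays. The log2 difference was -0.04 within number 1, where it was 0.24 under quantile normalization and 0.16 under median centring, and 1.93 within number 2. On this scale 0.114% of probe sets had a larger difference within number 2, which put it at rank 19 of 15838. Its rank was 14 with a pseudocount of 1 and 76 with a pseudocount of 64, where the difference was 0.89. The mean was 0.95 ± 0.49 (SE, n = 2 arrays per line; 95% interval -0.27 to 2.16; limma, adjusted p = 1.0). Side by side, the oppositely imprinted neighbours thus lay near 0 together within number 1 and above 0 together within number 2. The arrays count both alleles of a gene together, so the allele in use could not be read from them.

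**Figure D2:**
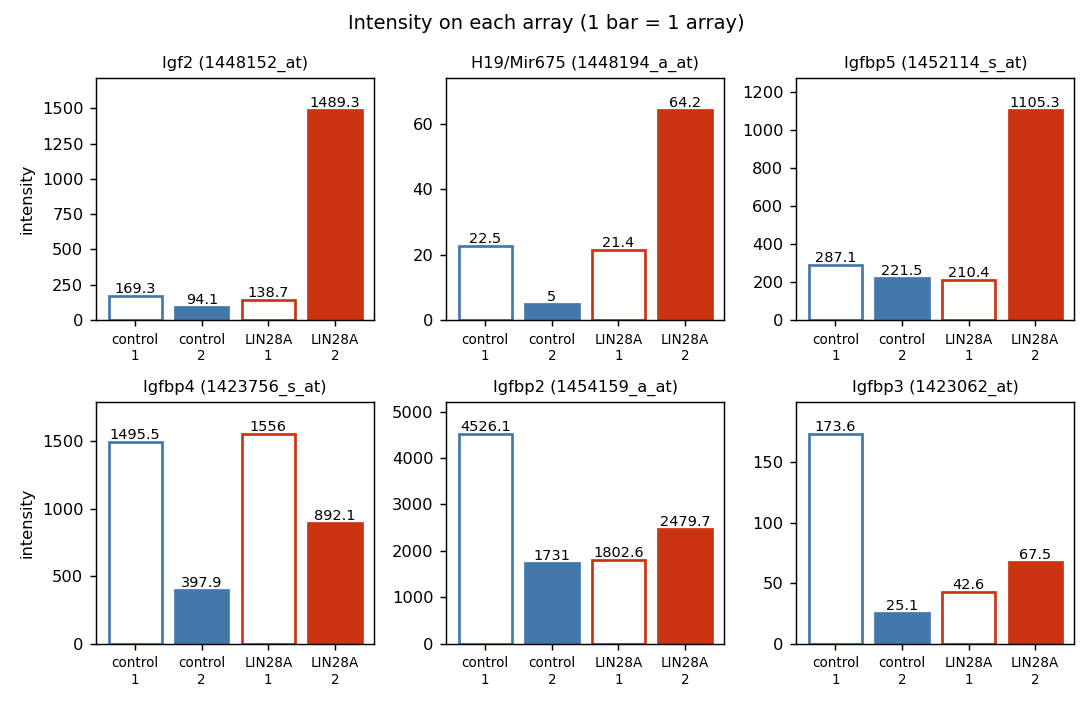
Intensity on each array for Igf2, the H19 and Mir675 probe set and the brightest probe sets of 4 binding protein genes; each bar is 1 array, open for number 1 and filled for number 2, and each panel has its own axis from 0. Igf2, H19/Mir675 and Igfbp5 are highest on LIN28A 2 (1489.3, 64.2 and 1105.3), while Igfbp4, Igfbp2 and Igfbp3 are lowest on control 2 (397.9, 1731.0 and 25.1).

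The receptors and the adaptor differed less. Igf1r, the signalling receptor, read 16.8 and 72.2 on the control arrays and 36.1 and 80.3 on the LIN28A arrays at its brighter probe set. The number 2 arrays were the higher ones in both lines there, and the lines overlapped. The second Igf1r probe set read 20 and 15.9 in control against 5.4 and 12.5 in LIN28A cells, so both LIN28A arrays lay below both control arrays. The mean differences of these probe sets were 0.40 (95% interval -0.99 to 1.78) and -0.46 (-1.2 to 0.29), of opposite sign.

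Igf2r, the clearance receptor, read 24.5 and 9.7 on the control arrays and 38.0 and 14.7 on the LIN28A arrays, and its second probe set read 17.8, 9.6, 26.0 and 12.3 in the same order. At both, the number 1 arrays were the higher ones and LIN28A exceeded control within each number, by 0.42 and 0.26 at the brighter probe set and by 0.31 and 0.14 at the other. All of these intensities were low. Irs1, the adaptor that carries the receptor signal to PI3 kinase, read 127.6 and 241.1 on the control arrays and 111.2 and 144.0 on the LIN28A arrays. Control 2 was the highest array, and the log2 difference was -0.17 within number 1, or 0.03 under median centring, and -0.68 within number 2 (mean -0.43; 95% interval -1.37 to 0.51).

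Among the binding proteins, Igfbp5 had the largest difference within number 2. Its brighter probe set read 287.1 and 221.5 on the control arrays and 210.4 and 1105.3 on the LIN28A arrays. LIN28A 2 was the only high array, and LIN28A 1 was the lowest of the 4. The log2 difference was -0.42 within number 1 and 2.24 within number 2, where 0.0568% of probe sets had a larger one. The weaker Igfbp5 probe set did not share this: it read 17.4, 23.9, 19.5 and 10.9 in the same order, with its lowest value on LIN28A 2.

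Igfbp4 had 6 probe sets, which share their target and are not replicates. Its brightest read 1495.5 and 397.9 on the control arrays and 1556.0 and 892.1 on the LIN28A arrays. Both number 1 arrays were high and alike, and control 2 was the lowest. Within number 2, the log2 difference was 1.13, 1.05, 0.89, 1.14, 1.1 and 0.59 from the brightest to the dimmest probe set. Within number 1 the same probe sets gave 0.06, -0.12, -0.21, 0.03, 0.06 and -0.48. The number 2 difference of the 4 brightest stood on arrays that were both lower than those of number 1: the number 2 minus number 1 difference ran from -2.28 to -1.87 in control and from -1.17 to -0.77 in LIN28A cells (log2). Only the fifth probe set had both LIN28A arrays above both control arrays, at 157.9 and 217.1 against 151.2 and 92.4.

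Igfbp2 and Igfbp3 had their highest value on control 1. Igfbp2, the fetal binding protein of neural tissue, read 4526.1 and 1731.0 on the control arrays and 1802.6 and 2479.7 on the LIN28A arrays. The lines thus crossed, with a log2 difference of -1.32 within number 1 and 0.51 within number 2. Igfbp3 read 173.6 and 25.1 on the control arrays and 42.6 and 67.5 on the LIN28A arrays, and crossed in the same way, at -1.69 and 1.02. Without control replicate 1 the mean difference of Igfbp2 moved from -0.40 to 0.29 and that of Igfbp3 from -0.34 to 0.77. The highest 18S and 3′ beta-actin values were likewise on control 1, and the part of RNA quality in these differences was not tested.

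Htra1, the secreted serine protease, was the member whose lines did not overlap at any of its probe sets. Its probe set with the larger difference read 15.5 and 2.1 on the control arrays and 44.9 and 47.9 on the LIN28A arrays. Both LIN28A arrays were alike, and both lay above both control arrays. On the log2 scale its control mean lay below the filter threshold, an intensity of 8.04, so it was tested only because the LIN28A arrays were high. The log2 difference was 0.95 within number 1 and 1.82 within number 2, with a mean of 1.39 ± 0.36 (SE, n = 2 arrays per line; 95% interval 0.5 to 2.27; limma, adjusted p = 1.0). This probe set's name holds an x, which marks probes that can also match other transcripts. The other Htra1 probe set, with no such mark, read 23.7 and 23.1 on the control arrays and 28.1 and 58.1 on the LIN28A arrays, and differed by 0.15 and 0.92.

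**Figure D3:**
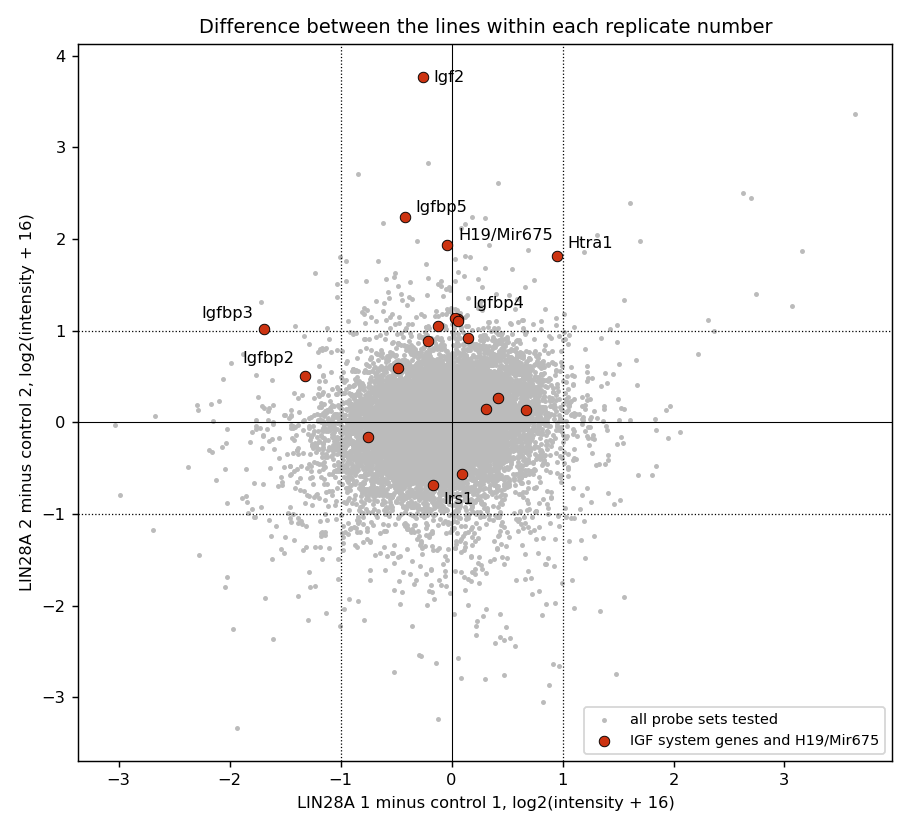
Log2 difference of LIN28A minus control within number 1 (horizontal) and within number 2 (vertical) for all 15838 probe sets tested (grey) and for the IGF system probe sets with H19/Mir675 (red); dotted lines mark a difference of 1. Igf2 has the largest number 2 value (3.77) at a number 1 value of -0.26, and Igfbp2 and Igfbp3 lie left of 0 and above 0.

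Counted together, members lay mostly above 0 within number 2. Counts of 2-fold differences are of a log2 difference of at least 1 on the log2(intensity + 16) scale, unless the plain ratio is named. On that scale, 8 of 18 member probe sets were at least 2-fold higher in LIN28A cells within number 2, against 1.10% of all probe sets, and 0 were at least 2-fold lower, against 2.29%. Those 8 belong to 5 genes, with 4 of them from Igfbp4. By the plain intensity ratio, 9 were at least 2-fold higher (3.62% of all probe sets) and 1, the weaker Igfbp5 probe set, at least 2-fold lower (6.07%). Counting each gene once by its brightest probe set, 4 of 9 genes (Igf2, Igfbp3, Igfbp4 and Igfbp5) were at least 2-fold higher, against 1.24% of 8930 genes.

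Within number 1, 0 of 18 member probe sets were at least 2-fold higher, against 1.02% of all, and 2 were at least 2-fold lower, Igfbp2 and Igfbp3, against 2.55%. By the plain ratio there were 2 higher, at a probe set each of Htra1 (2.9) and Igf1r (2.15), against 2.97% of all, and 3 lower, with the second Igf1r probe set (0.27) added, against 10.8%. By gene, 0 of 9 were at least 2-fold higher and 2 at least 2-fold lower within number 1, against 0.694% and 2.67% of all genes. By gene, 8 of 9 lay above 0 within number 2 and 4 of 9 within number 1, where 51.7% and 41.2% of all genes did. The median over the 9 genes was 0.92 within number 2 and -0.17 within number 1, against 0.01 and -0.08 over all genes. Both LIN28A arrays were higher than both control arrays at 3 member probe sets and lower at 1, against 10% and 15.5% of all probe sets. Over probe sets, 9 of 18 members lay above 0 within number 1 and 15 within number 2, against 41.1% and 49.6% of all. Of the 18, 8 lay above 0 in both numbers (24.2% of all), 2 below 0 in both (33.3%), 7 below in number 1 and above in number 2 (25.3%) and 1 the other way round (16.8%). Much of the spread lay between the numbers of one line: in control, number 2 was at least 2-fold above number 1 at 1 member and below it at 6 (6.74% and 4.14% of all probe sets), and in LIN28A cells at 3 and 1 (7.28% and 3.59%). These members were chosen with earlier results of the arrays known, so their counts describe them and are no test.

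For 3 of the 4 genes that were at least 2-fold higher within number 2 at their brightest probe set, Igf2, Igfbp5 and Igfbp4, the stretch of 150 bases just before an annotated start site is shown, because these members lay above 0 together there. The sequences are those of RefSeq on GRCm38.p6, 5′ to 3′ on the gene's strand, with matches to the 4 motifs named below in capitals. The Igf2 stretch is at chr7:142657497-142657646 (minus strand) and belongs to the last of 4 windows listed for Igf2, that of Igfbp5 is at chr1:72874866-72875015 (minus strand), and that of Igfbp4 is at chr11:99041094-99041243 (plus strand).
Igf2: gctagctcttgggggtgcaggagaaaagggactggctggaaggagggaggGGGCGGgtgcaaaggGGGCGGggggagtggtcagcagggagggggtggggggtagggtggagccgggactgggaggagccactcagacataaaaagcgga
Igfbp5: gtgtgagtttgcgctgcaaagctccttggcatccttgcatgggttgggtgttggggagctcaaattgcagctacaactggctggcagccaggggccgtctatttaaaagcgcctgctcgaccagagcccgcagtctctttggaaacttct
Igfbp4: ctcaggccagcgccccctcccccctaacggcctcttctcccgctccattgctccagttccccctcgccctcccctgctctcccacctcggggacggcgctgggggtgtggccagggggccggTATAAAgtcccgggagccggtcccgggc

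The motifs were searched on both strands in windows of 250 bases before to 50 after each start site, and they do not overlap each other. The GC box GGGCGG was found in 7 of 13 member windows (35.7% of all 32851 windows), the TATA box TATAAA in 1, that of Igfbp4 (13.6% of all), the E-box CACGTG in 3 (7.15%) and the single hexamer AGGTCA in 3 (16.3%). Retinoid receptors bind a pair of such hexamers, and pairs were not searched. The hexamer was in windows of Igf1r, Igf2 and Igf2r. A match describes letters and not a bound site, and the probe sets do not tell which Igf2 start site was used.

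Outside the members, the lists of the IGF pathway differed in direction. The limma test called 0 higher and 0 lower in each of the 7 pathway lists and 6 marker lists, as it did over all genes (0% of 8930 in either direction). Among 8 tested ligand, receptor and adaptor genes, 4 lay above 0 and 4 below, with a median of -0.27 within number 1 and 0.22 within number 2. Grb10, an imprinted adaptor that restrains IGF and insulin receptors, was the one of them with both LIN28A arrays below both control arrays, at 16.5 and 34.9 against 60.6 and 38.4, which makes 12.5% of this list against 16.6% of all genes. Igf1, the other IGF ligand and singled out after its values were seen, read 46.6 and 8.6 on the control arrays and 28.8 and 53.2 on the LIN28A arrays, with differences of -0.48 and 1.49. The insulin receptor gene Insr read 14.4 or less on every array and did not pass the filter.

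Of 9 tested binding protein and protease genes outside the members, 2 lay above 0 and 7 below, with a median of -0.24, against 45.1% of all genes above 0. Within number 1, 0 of the 9 lay above 0, against 41.2% of all genes, and within number 2, 4 did, against 51.7%. In this list 2 genes (22.2%) had both LIN28A arrays below both control arrays, against 16.6% of all genes. Stc2, a stanniocalcin that inhibits the binding protein protease PAPP-A, read 40.7 and 55.8 on the control arrays and 12.8 and 12.9 on the LIN28A arrays. Its differences were -0.98 and -1.31, and its second probe set read 29.3 and 22.9 against 10 and 7.4. Htra3, a relative of Htra1, read 18.4 and 14.8 against 8.4 and 9.4. The other Htra3 probe sets read 8.1 or less on every array, did not pass the filter and overlapped between the lines. Neither Stc2 nor Htra3 passed the test (limma, adjusted p = 1.0 for each).

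Downstream of the receptor, 22 genes of the PI3K, AKT and mTOR branch were tested, of which 12 lay above 0 and 10 below, with a median of 0.07. Both LIN28A arrays were above both control arrays for 2 of them and below for 2, against 11.5% and 16.6% of all genes. Ddit4, a stress-induced inhibitor of mTOR, read 132.7 and 501.8 on the control arrays and 70.2 and 100.3 on the LIN28A arrays. Gsk3b, a kinase that AKT inhibits, read 77.6 and 141.5 against 146.9 and 149.3. Pik3r2, a regulatory PI3 kinase subunit, read 128.1 and 129.0 against 131.3 and 173.2, and the AKT target transcription factor gene Foxo3 read 129.9 and 163.2 against 127.9 and 129.5.

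The neighbours of Igf2 and H19 on chromosome 7 had a smaller median difference within number 2 than the members. Of 13 tested, 7 lay above 0, against 45.1% of all genes, with medians of -0.23 within number 1 and 0.21 within number 2. Over all genes these medians were -0.08 and 0.01. Within number 1, 2 of the 13 lay above 0, against 41.2% of all genes, and within number 2, 8 did, against 51.7%. Within number 2, 1 of the 13 was at least 2-fold higher, against 1.24% of all genes. That gene was Phlda2, an imprinted growth-restraining gene of the neighbouring cluster, which read 28.7 and 10.5 on the control arrays and 25.2 and 59.3 on the LIN28A arrays. Its differences were -0.12 and 1.51. Cdkn1c, the imprinted cell cycle inhibitor next to it and also singled out after its values were seen, read 23.4 and 9.6 against 10.8 and 27.7. By the plain intensity ratio within number 2, Phlda2 (5.65), Lsp1 (3.03), Cdkn1c (2.89) and Trpm5 (2.05) were at least 2-fold higher. Cars (0.339) was at least 2-fold lower. Over all probe sets these shares were 3.62% and 6.07%. Th, the tyrosine hydroxylase gene, read 21.9 and 9.8 against 0.6 and 6.3. Nap1l4, a histone chaperone gene, read 534.7 and 653.7 against 740.9 and 810.4. Th and Nap1l4 were the genes of this list whose lines did not overlap (1 of 13 below and 1 above, against 16.6% and 11.5% of all genes). Near Igf2r on chromosome 17, 6 genes were tested with a median of 0.06. Airn, the noncoding RNA that silences the paternal Igf2r allele and also singled out after its values were seen, read 35.2 and 13.1 on the control arrays and 27.6 and 12.3 on the LIN28A arrays. Tcp1 and Wtap were the 2 of these genes whose lines did not overlap, with mean differences of -0.20 and 0.31 (1 of 6 below and 1 above, against 16.6% and 11.5% of all genes), although the other Wtap probe set differed by -0.37.

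Of 15 tested regulators of Igf2 and H19, 12 lay above 0 and 6 had both LIN28A arrays above both control arrays (40.0%, against 11.5% of all genes), with a median of 0.22, or 0.34 under median centring, which moved the median of all probe sets by 0.127. Dnmt3a, a de novo DNA methyltransferase, read 202.5 and 141.0 on the control arrays and 219.6 and 459.9 on the LIN28A arrays at its brightest probe set. Its other 4 probe sets differed by 0.58 to 1.07. Dnmt3b, the second de novo enzyme, read 90.6 and 136.2 against 165.5 and 221.0 (0.28 at its other probe set). The maintenance methylation genes Uhrf1 and Dnmt1 differed by 0.56 and 0.33. Igf2bp3, which encodes an RNA-binding protein of Igf2 mRNA, read 530.5 and 776.7 against 941.6 and 996.0 (0.08 to 0.49 at its other probe sets). Zfp57, which protects imprints, read 21.7 and 36.0 against 13.9 and 21.5. Ctcf, the insulator protein gene of the locus and outside the naming rule as well, read 389.5 and 675.5 against 446.1 and 802.1, with the number 2 arrays higher in both lines.

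Of 12 tested genes of the imprinted network that is known to move with H19 or Plagl1, 5 lay above 0, with medians of -0.59 within number 1 and 0.02 within number 2. Both LIN28A arrays were above both control arrays for 2 genes and below for 4, against 11.5% and 16.6% of all genes. Peg3 and Meg3 were the ones above, at differences of 3.64 and 3.36 for Peg3 and 2.31 and 1.12 for Meg3, in number 1 and number 2. Further Meg3 probe sets were also higher on both LIN28A arrays, apart from a probe set that read 26.8 and 5.1 against 21.3 and 20.2. Slc38a4, an amino acid transporter gene, differed by -1.13 and -2.09, and Ndn by -0.62 and -0.89. Gnas, which encodes a stimulatory G protein subunit, differed by -0.64 and -0.04 (0.16 and -0.12 at its other tested probe set). Grb10, given above, is the remaining one below.

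**Figure D4:**
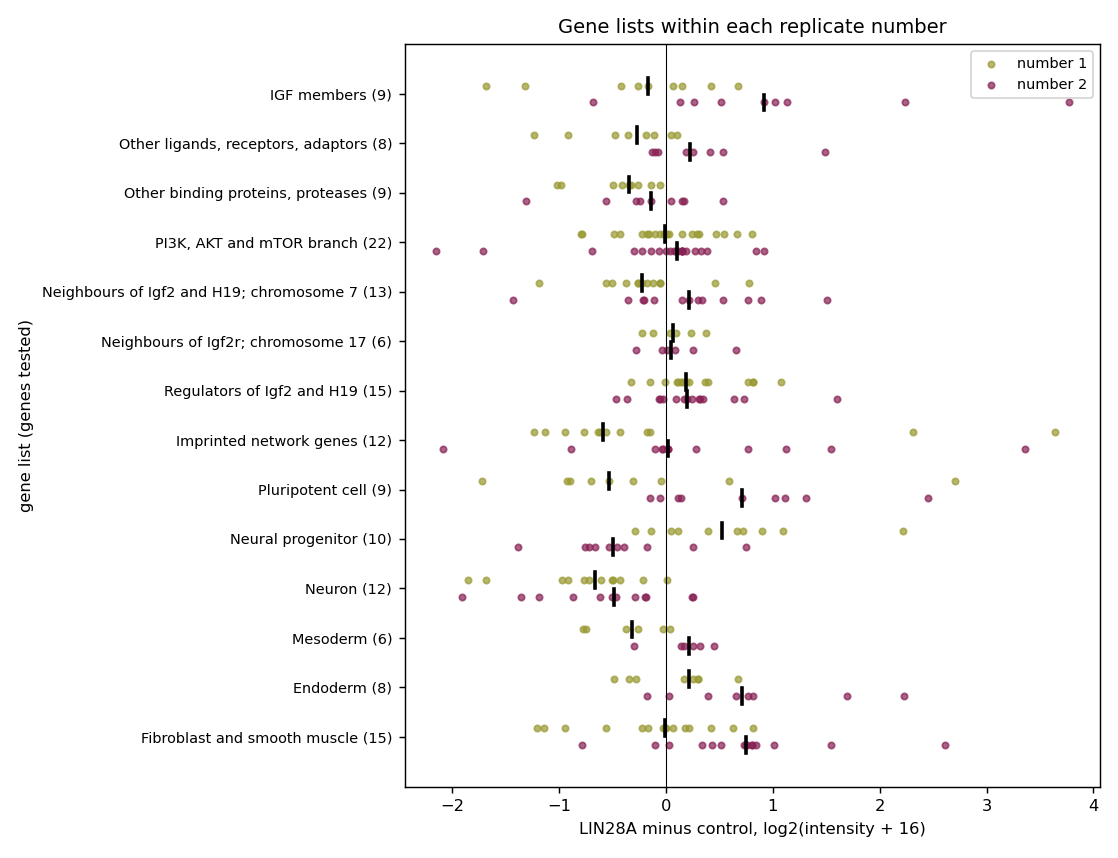
Log2 difference of LIN28A minus control for each tested gene of each list, within number 1 (olive, upper row) and number 2 (purple, lower row); black bars are medians and brackets give the genes tested. The members have medians of -0.17 and 0.92 and the endoderm markers 0.21 and 0.71.

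Genes whose arrays were most like those of Igf2 were sought by the Euclidean distance over the 4 arrays, after centring each gene, among 8921 genes other than the members. The nearest were Txnip (1.13), Fgl2 (1.17), Myh1 (1.17), Cx3cl1 (1.2) and Lamb1 (1.53), where the number in brackets is the distance. Txnip, a glucose-responsive inhibitor of thioredoxin, read 38.0 and 8.0 on the control arrays and 30.5 and 155.0 on the LIN28A arrays. Lamb1, a basement membrane laminin gene, read 83.8 and 45.6 against 106.8 and 272.7. To the H19 and Mir675 probe set, the nearest were Hmgn3 (0.12), Dnmt3a (0.3), Phlda2 (0.31), Lamb1 (0.35) and Cntnap2 (0.36). Each of these genes was highest on LIN28A 2, and 4 arrays are few for a likeness.

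Markers of other cell types that aggregated P19 cells can form were read beside these results. Igf2 and H19 are strongly expressed in endoderm and mesenchyme of the embryo. The 13 endoderm markers summed to intensities of 1105 and 1167 on the control arrays and 1125 and 1808 on the LIN28A arrays, highest on LIN28A 2. Their tested members had a median of 0.21 within number 1 and 0.71 within number 2, and 3 of 8 had both LIN28A arrays above both control arrays, against 11.5% of all genes. These were Lamb1, Foxa1, which read 69.7 and 65.8 against 89.8 and 247.1, and Col4a2, which read 110.4 and 92.3 against 126.1 and 125.7. The defining endoderm markers Sox17, Foxa2, Afp, Ttr and Apoa1 read under 16 on every array.

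The 20 fibroblast and smooth muscle markers summed to 1185 and 953 on the control arrays and 1153 and 1400 on the LIN28A arrays, with medians of -0.01 and 0.75. Col3a1, a fibrillar collagen gene, read 48.3 and 10.9 against 70.2 and 147.9. Acta2, Myl9 and Col5a1 were likewise higher on both LIN28A arrays, with mean differences of 0.91, 0.69 and 0.51, although the other probe sets of Acta2 and Col5a1 overlapped. Lox, a collagen cross-linking enzyme gene, went the other way at 38.5 and 36.3 against 7.5 and 14.3. These make 4 of 15 above and 1 below, against 11.5% and 16.6% of all genes. Of the 20 markers, 8, among them Col1a1 and Postn, read under 16 on every array. The 12 mesoderm markers summed to 162.7 and 77.7 against 72.8 and 102.0, with 7 under 16 on every array; Hand2 was the only 1 of 6 tested with lines that did not overlap, at 17.4 and 9.2 against 3.4 and 4.5 (16.6% of all genes below).

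The 11 pluripotency markers summed to 281.5 and 460.6 on the control arrays and 310.0 and 1037 on the LIN28A arrays, of which Pou5f1 made 775.2 on LIN28A 2. Without Pou5f1 they summed to 251.2 and 86.4 against 281.3 and 261.9. Both LIN28A arrays were above both control arrays for Sall4 and Utf1, with mean differences of 2.58 and 0.65, and below for Fgf4 and Esrrb, at -0.38 and -0.23 (2 of 9 each way, against 11.5% and 16.6% of all genes). The 10 neural progenitor markers had a median of 0.52 within number 1 and -0.50 within number 2, and the 12 neuronal markers of -0.67 and -0.49. Of the progenitor markers, Hes5 had both LIN28A arrays above both control arrays (924.2 and 337.2 against 185.6 and 194.3) and Sox2 had both below. That is 1 of 10 each way, against 11.5% and 16.6% of all genes. Of the neuronal markers, 4 of 12 had both LIN28A arrays below both control arrays, against 16.6% of all genes. These were Mapt, Stmn2, Elavl4 and Syp, with mean differences of -1.8, -1.18, -0.98 and -0.49 at the brightest probe set. The other tested probe sets of Mapt, Stmn2 and Elavl4 overlapped between the lines, with mean differences from -1.19 to -0.35. No marker of these lists was at 0 on every array. LIN28A 2, the array with the high Igf2, H19/Mir675 and Igfbp5 values, also had the highest endoderm and fibroblast and smooth muscle sums, and the highest pluripotency sum with Pou5f1 but not without it. Whether such cells were present, and what part they had in the IGF values, was not tested.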

How the data were processed

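The authors deposited 1 table of 22690 probe sets on 4 one-colour Affymetrix arrays, made from biotin-labelled cRNA per the labels' protocols. The deposited values are linear intensity values of at least 0 with no log taken, and their mean after trimming 2% at each end was 150.1 on every array, so they were used as already scaled. The summarising software is not given in the sources used, and there are no detection calls. Median intensities were 29.0 to 38.6, and 35.7% to 42.3% of probe sets read under 16. The number of arrays limits the precision.

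Annotation gave 20380 probe sets 1 symbol, 691 several and 1555 none; 64 control probe sets were left out of tests. Values became log2(intensity + 16). Probe sets with a mean under the 30th percentile (an intensity of 8.04) were left out, leaving 15838. The lines were compared in R 4.3.3 with limma 3.58.1 (lmFit, eBayes), with no block, with Benjamini-Hochberg adjustment and a threshold of 0.05; the script was tested on simulated data. An exact permutation test of 2 against 2 arrays cannot go below p = 0.333, so none was run. Gene lists take each gene's brightest tested probe set. Members and lists were chosen with earlier results of these data known. Named were all members, up to 6 genes per list whose lines did not overlap, largest mean difference first, and the 5 genes nearest to Igf2 and to H19. Alternatives were the pseudocount, scaling, filter, block and leaving out each array.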

Additional observations from a re-analysis of the deposited data

How the results depend on the processing

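Other pseudocounts, scalings and the replicate block gave 114 values over the 18 member probe sets and the H19 and Mir675 probe set. The sign of the reported mean difference was kept in 114 cases, and 0 were called. With 1 array of each line per number, the block cannot change a mean difference. Its values therefore repeat those without it and are no further check of the sign. The weaker Igfbp5 probe set moved from -0.24 to -0.00 under quantile normalization. Leaving out 1 array (76 values, 0 called) turned the sign 13 times, at 11 probe sets. Ranges without 1 array were 0.12 to 3.40 for Igf2, 0.40 to 1.5 for H19 and Mir675, -0.32 to 1.11 for the brighter Igf1r probe set, -0.07 to 0.74 and -0.06 to 0.51 for Igf2r, -1.09 to 0.29 for Igfbp2, -1.44 to 0.77 for Igfbp3, -0.24 to 2.06 for the brighter Igfbp5 probe set, and, for the 4 brightest and the dimmest Igfbp4 probe sets, -0.34 to 1.53, -0.51 to 1.43, -0.80 to 1.48, -0.47 to 1.64 and -0.46 to 0.58. In the lone-array arms the single array is assumed to vary like the others.

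Leaving out 1 array also moved the median over the 9 member genes from 0.40 to between -0.05 and 0.66. Within number 1, the H19 and Mir675 difference turned from -0.04 to 0.24 under quantile normalization and 0.16 under median centring, Irs1 to 0.03 and the second brightest Igfbp4 probe set to 0.08 under median centring, and the fourth to -0.01 under quantile normalization; the cause was not tested. Within number 2, a pseudocount of 1 gave 3.44 for H19 and Mir675 and a pseudocount of 64 gave 0.89, against 1.93. For the Htra1 probe set with the larger difference, a pseudocount of 1 gave 3.98 there, against 1.82.

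Deviations of arrays with the same number correlated at r = 0.62 over probe sets, and nothing but the number links them. With the replicate block, limma called 1 probe set higher (Peg3), and 3 when values were also quantile normalized, none of them a member; at an unadjusted p under 0.05 it had 468 higher and 890 lower. With 1 residual degree of freedom, the block gave that Htra1 probe set an adjusted p = 0.364 in limma. Other settings called 0 in each direction. Without the block, probe sets at an unadjusted p under 0.05 numbered 122 higher after quantile normalization, and median centring gave 167 higher against 107 lower.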
